A study of Mus musculus with 2 samples.

Results

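The 10 genes described here encode channels of mechanosensing, temperature sensing and calcium entry, and they were read through the open chromatin around them. They are Piezo1, Piezo2, Trpv3, Trpv4, Trpm7, Tmem63a, Tmem63b, Kcnk1, Panx1 and Orai1. Their members are 59 of the 94857 merged open regions with at least 20 counts over both libraries, each taken because one of these genes was its nearest protein-coding gene span (RefSeq, GRCm38) within 50 kb. Another 9 regions nearest to these genes had fewer than 20 counts and were not used. The members closest above that minimum had 23, 23, 23 and 24 counts, and those closest below it had 19, 18, 17 and 16.

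The assay was ATAC-seq, where Tn5 transposase cuts accessible DNA and tags it for sequencing, so that a region's count follows its accessibility. The stretched library came from 1 CD1 mouse, an outbred stock, whose back skin had been expanded by mechanical force. The control library came from 1 untreated CD1 mouse. Both were made from 10000 basal cells of the interfollicular epidermis, gated as ITGA6+ (the integrin that holds basal cells to the basement membrane) and CD34- (without a surface protein that bulge stem cells of the hair follicle carry). The labels give neither age nor sex, and the duration of stretching stands at most in a code that they do not explain. With 1 animal in each group no difference has a replicate check and no p-value was computed, so differences between the 2 animals and effects of stretching cannot be told apart.

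Force on a membrane opens some ion channels directly. PIEZO channels are trimers that open under membrane tension and admit calcium and other cations, and TMEM63 proteins, relatives of the plant OSCA channels, open on membrane stretch or osmotic change. TRPV3 and TRPV4 are calcium-permeable channels of keratinocytes that respond to warmth, and TRPV4 also to cell swelling, whereas TRPM7 joins a magnesium- and calcium-permeable pore to a kinase domain. PANX1 releases ATP, ORAI1 is the pore that STIM proteins open when calcium stores empty, and KCNK1 is a tandem-pore potassium channel.

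The promoter windows of the 4 genes on which the results turn follow, 250 bases before to 50 after the start site, from RefSeq (GRCm38.p6), 5′ to 3′ on the gene's own strand. Trpv3 and Trpm7 had the highest folds of their summed counts, and Piezo1 and Orai1 the largest contrast between promoter and other regions. Capitals mark motif letters found on either strand. The AP-1 motif was searched as TGANTCA. For TEAD factors the letters searched were GGAATG. The GC box was searched with the letters GGGCGG. The CCAAT box was searched under its own letters. For KLF factors the letters searched were CACCC. Motifs may overlap, as a GC box and a KLF match do in Orai1. The Trpv3 window is chr11:73267270-73267569 (plus strand), the Trpm7 window chr2:126876212-126876511 (minus strand), the Piezo1 window chr8:122551280-122551579 (minus strand) and the Orai1 window chr5:123014824-123015123 (plus strand).
Trpv3: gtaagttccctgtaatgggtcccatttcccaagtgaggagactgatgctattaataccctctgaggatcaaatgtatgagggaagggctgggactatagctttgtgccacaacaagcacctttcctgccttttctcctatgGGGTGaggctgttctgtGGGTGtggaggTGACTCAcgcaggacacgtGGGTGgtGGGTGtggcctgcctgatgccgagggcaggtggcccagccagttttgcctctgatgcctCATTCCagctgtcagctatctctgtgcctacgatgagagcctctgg
Trpm7: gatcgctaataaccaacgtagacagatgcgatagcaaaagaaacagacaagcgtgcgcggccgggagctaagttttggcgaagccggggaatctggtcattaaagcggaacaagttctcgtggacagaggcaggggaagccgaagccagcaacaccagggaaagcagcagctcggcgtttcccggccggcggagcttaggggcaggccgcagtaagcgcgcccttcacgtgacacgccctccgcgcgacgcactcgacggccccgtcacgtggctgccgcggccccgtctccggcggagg
Piezo1: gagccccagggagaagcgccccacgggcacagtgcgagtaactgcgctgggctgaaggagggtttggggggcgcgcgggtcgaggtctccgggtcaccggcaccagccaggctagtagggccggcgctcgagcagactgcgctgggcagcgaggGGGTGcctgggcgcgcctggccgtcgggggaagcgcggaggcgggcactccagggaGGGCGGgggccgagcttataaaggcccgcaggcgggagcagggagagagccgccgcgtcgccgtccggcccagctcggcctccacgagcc
Orai1: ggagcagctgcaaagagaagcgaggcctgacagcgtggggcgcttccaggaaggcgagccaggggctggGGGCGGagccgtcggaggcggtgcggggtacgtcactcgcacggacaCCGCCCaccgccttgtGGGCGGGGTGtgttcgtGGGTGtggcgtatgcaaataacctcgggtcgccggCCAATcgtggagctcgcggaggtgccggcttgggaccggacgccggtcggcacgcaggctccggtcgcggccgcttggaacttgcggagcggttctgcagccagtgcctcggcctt

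These windows differ in base composition. The Trpv3 window held 4 CpG dinucleotides and 54.7% G and C, against 35 CpG and 63.7% in Trpm7, 34 and 75% in Piezo1, and 36 and 70.3% in Orai1. The median over 21263 promoter windows of protein-coding genes was 13 CpG and 56.3% G and C. Trpv3 alone among the 9 members with a window held the AP-1 letters, once, at 81 bases before the start site (TGACTCA), and 6.99% of all windows held them. It also held the TEAD letters once, as did Kcnk1 and 13.6% of all windows. KLF letters were at 5 positions in Trpv4, 4 in Trpv3, 2 in Orai1 and 1 each in Piezo1, Tmem63a and Tmem63b. Of all windows, 59.5% held at least 1 KLF match. None of the 5 motifs was in the Trpm7 window. GC box letters were in the windows of Piezo1, Trpv4, Tmem63a, Tmem63b and Orai1 and in 46.2% of all windows, and CCAAT letters in Tmem63a, Panx1 and Orai1 and in 38.2%. A match is a description of the letters, not a bound site.

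Counts over all 109257 merged regions summed to 11803785 in the stretched library and 8820178 in the control library, and 10 regions with over 10000 counts each held much of both totals. Folds below are stretched over control after TMM scaling, which places the median region near 1, with exact 95% intervals that cover counting error only. Scaling by total counts instead lowers every log2 fold by 0.50, and scaling with those 10 regions set aside lowers it by 0.14. The fragments kept for peak calling ran the other way, with 23876613 in the stretched and 31944854 in the control library. Scaling by them was not done and would place every fold above its TMM value. A region was called higher or lower when its fold was at least 2 in either direction and its interval excluded 1.

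Most regions of the channel genes were not called. Of the 59 regions 1 was called higher and 5 lower, which is 1.69% and 8.47%, beside 7.22% and 8.71% of all regions. The share called lower is near that of all regions, and the share called higher is 1 region. The median log2 fold was -0.04 for the channel regions and -0.00 for all regions, and the middle of the channel regions, from -0.45 to 0.30 between quartiles, lay inside the -0.51 to 0.48 of all regions. Their interval lay above 1 at 5 regions and below 1 at 9, or 8.47% and 15.3%, beside 18.6% and 15.6% of all regions. The called regions were 2 in Piezo1 and 1 each in Piezo2, Tmem63a and Orai1, all lower, and 1 in Trpm7, higher. The other members, Trpv3, Trpv4, Tmem63b, Kcnk1 and Panx1, had no called region. Of the 6 called regions, 1 had at least 100 counts, as did 27 of the 59.

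**Figure D1:**
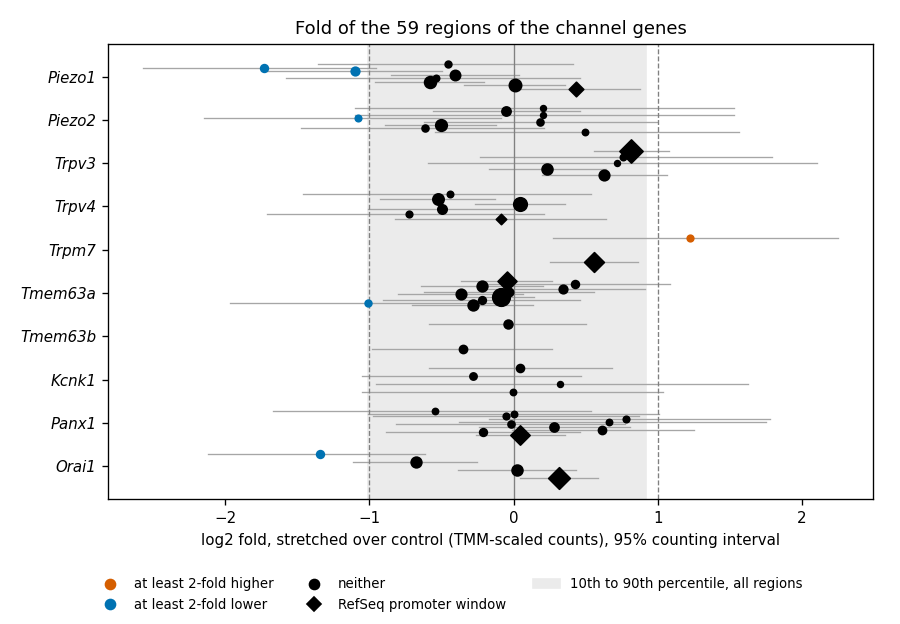
Log2 fold, stretched over control, of each of the 59 regions (points, larger with more counts; grey bars, 95% counting intervals) by gene, with promoter regions as diamonds and the 10th to 90th percentile of all regions shaded. The 5 Trpv3 regions and both Trpm7 regions lie right of 0, while 6 of 8 Piezo1 regions and 5 of 6 Trpv4 regions lie left of it.

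Summed over its regions, each gene fell into one of 3 groups. The interval lay above 1 for Trpv3 and Trpm7, below 1 for Piezo1, Piezo2 and Trpv4, and held 1 for Tmem63a, Tmem63b, Kcnk1, Panx1 and Orai1. This grouping holds for TMM and DESeq2 scaling. With total scaling the intervals of those last 5 genes all lay below 1 and those of Trpv3 and Trpm7 held 1. Those of Tmem63a and Orai1 also lay below 1 with the large regions set aside and with the count trend removed. Over 14727 genes with at least 100 counts, 40.1% had an interval above 1 and 18.7% below 1, so intervals of this kind are common. The genes' median log2 fold was -0.10 for the members and 0.14 for all such genes. In order of fold from the lowest, Piezo1, Piezo2, Trpv4, Tmem63b, Tmem63a, Orai1, Kcnk1 and Panx1 followed each other with intervals that overlapped between neighbours. Trpm7 and Trpv3 came last, and the interval of Trpm7 (1.26 to 1.88) began just above the upper end of that of Panx1 (0.965 to 1.26).

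Piezo1, whose channel senses membrane tension, lies on chromosome 8 from 122481698 to 122551329 on the minus strand and had 8 regions, all inside the gene span. They summed to 496 counts in the stretched library and 673 in the control library, a fold of 0.779 (0.692 to 0.876). A share of 14.9% of all genes with at least 100 counts had a lower fold. Without its 2 called regions the fold was 0.880 (0.774 to 1.0003). Its low value came from the gene body.

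The Piezo1 region over the start site (122550763 to 122551924) had 101 stretched and 79 control counts and a fold of 1.35 (0.997 to 1.84), or 0.955 with total scaling. The next, centred 2243 bases into the gene (122548623 to 122549549), had 135 and 142 counts and a fold of 1.005 (0.788 to 1.28). The third, at about 14 kb (122536662 to 122537818), had 98 stretched and 155 control counts and a fold of 0.668 (0.513 to 0.866). With TMM scaling the promoter was thus not lower in the stretched library, while the body from about 14 kb on had folds below 1 at all 6 regions.

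Further into Piezo1, at 122522956 to 122524652, the counts were 75 and 105 (fold 0.755, 0.554 to 1.02), and at 122526234 to 122526727 they were 15 and 23 (0.689, 0.334 to 1.38). At 122511197 to 122512289, 34 stretched counts stood against 77 control counts, a fold of 0.467 (0.302 to 0.707), which was called lower. At 122502953 to 122503954 the counts were 18 stretched and 63 control, and the fold of 0.302 (0.168 to 0.516) was the lowest of all 59 regions. Both called Piezo1 regions were far from the start site, 39586 and 47876 bases to their centres. Only 1.33% of the 24321 regions outside promoters with 50 to 99 counts had a fold below that of the second. The last region (122500850 to 122501268) had 20 and 29 counts and a fold of 0.729 (0.391 to 1.33).

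Piezo2, the touch channel of sensory neurons and Merkel cells, spans 377504 bases on chromosome 18 from 63010213 to 63387716. It had 8 regions, 6 of them inside the span, with 267 stretched and 341 control counts in all (fold 0.827, 0.702 to 0.974). Per length it was the most thinly covered member, with 0.159 regions inside the gene for every 10 kb of span, against 2.44 in Tmem63a. Most of its counts lay in a few regions.

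The strongest, 210 bases inside the upper end of the gene (63386078 to 63387506), had 96 stretched and 144 control counts and a fold of 0.704 (0.538 to 0.918). A region at 63042393 to 63043399 had 64 and 70 counts and a fold of 0.966 (0.677 to 1.38). The called region, at 63196245 to 63196607, had 13 stretched and 29 control counts (fold 0.474, 0.226 to 0.940), and its call was lost with the count trend removed (0.516). The remaining regions had 23 to 56 counts and folds of 0.653 to 1.41, with every interval holding 1. Without the called region the gene's fold was 0.860 (0.726 to 1.02). Merkel cells are a source of Piezo2 in skin. Of 8 Merkel markers 7 had regions, with 1 called higher and 2 lower of 20 (5% and 10%, beside 7.22% and 8.71% of all regions). Krt20, a defining marker, had no region, Atoh1, another, had a fold of 1.04 (0.817 to 1.33), and Krt18, a keratin of simple epithelia, had 0.569 (0.440 to 0.733) with 2 of 4 regions called lower. Isl1, a transcription factor, had 1.41 (1.10 to 1.81), Krt8, Sox2, Insm1 and Chga had intervals that held 1, and the list summed to 934 stretched and 1025 control counts. Their part in the Piezo2 value was not tested, and fewer cells of a type and less open chromatin per cell cannot be told apart.

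Trpv3, the warmth-activated channel of keratinocytes, lies on chromosome 11 from 73267489 to 73300368 on the plus strand, and all 5 of its regions had folds above 1. They summed to 594 stretched and 400 control counts, a fold of 1.57 (1.38 to 1.79), the highest of the members, and 84.6% of genes with at least 100 counts had a lower fold. No single Trpv3 region reached 2-fold. With total scaling the gene stood at 1.11 (0.976 to 1.26), and with the count trend removed at 1.30 (1.14 to 1.48).

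The Trpv3 promoter region (73266080 to 73268086), which holds the window printed above, had 333 counts in the stretched library and 200 in the control library. Its fold was 1.76 (1.47 to 2.11), and 1.24 with total scaling. Of the 2654 promoter regions with 400 or more counts, 69.6% had a lower fold, and their median was 1.49. In the gene body, a region 16617 bases from the start site (73283470 to 73284804) had 114 and 78 counts and a fold of 1.54 (1.15 to 2.09). Its neighbour at 73281472 to 73282177 had 109 and 98 counts and a fold of 1.18 (0.886 to 1.56), and 0.831 with total scaling. Weak regions at 73274672 and 73279701 had 24 and 14 stretched counts against 15 and 9 control counts, with folds of 1.69 (0.851 to 3.47) and 1.64 (0.663 to 4.31).

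Trpv4, the swelling- and warmth-responsive channel, lies on chromosome 5 from 114622152 to 114658435 on the minus strand. Its 6 regions summed to 382 stretched and 484 control counts (fold 0.834, 0.727 to 0.956). Trpv3 and Trpv4 thus lay on opposite sides of 1, with intervals that did not overlap. The region with the most counts (114646964 to 114648325) had 171 stretched and 175 control counts and a fold of 1.03 (0.831 to 1.28). The one with the interval below 1 (114639059 to 114640221) had 90 and 137 counts (0.694, 0.526 to 0.912). The promoter region (114657644 to 114658753) was weak in both libraries, with 32 and 36 counts (0.939, 0.565 to 1.56). The other 3 had folds of 0.604 to 0.735 with intervals that held 1.

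Trpm7, the channel with a kinase domain, spans 84704 bases on chromosome 2 from 126791558 to 126876261 on the minus strand and had only 2 regions, both higher in the stretched library. They summed to 248 stretched and 170 control counts, a fold of 1.54 (1.26 to 1.88). The promoter region (126875328 to 126876712) had 217 stretched and 156 control counts and a fold of 1.47 (1.19 to 1.82), or 1.04 with total scaling. Of the 3814 promoter regions with at least 200 but under 400 counts, 65.8% had a lower fold, and their median was 1.28. The other region, 890 bases inside the far end of the gene (126792448 to 126793120), had 31 and 14 counts. Its fold of 2.34 (1.21 to 4.76) was the only one called higher among the 59, and with 45 counts it was lost at a minimum of 50 counts and with total scaling (1.65). The gene itself stood at 1.09 (0.893 to 1.33) with total scaling.

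**Figure D2:**
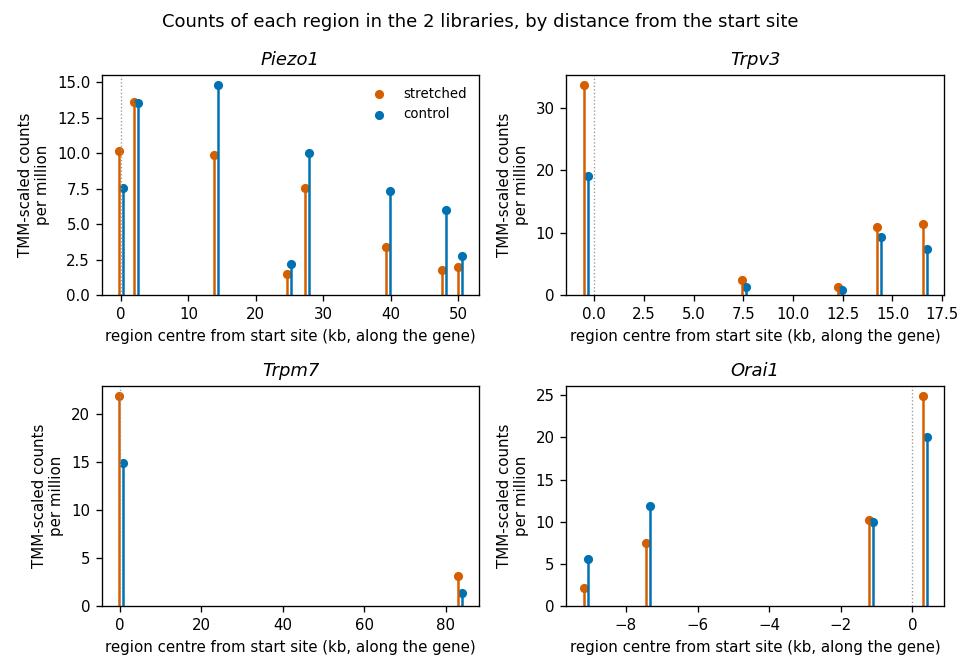
TMM-scaled CPM of each region in the stretched (orange) and control (blue) libraries, for Piezo1, Trpv3, Trpm7 and Orai1, by the distance of the region's centre from the start site in kb along the gene, with points of the libraries set slightly apart for display. In Piezo1 the stretched library is above the control at the start site (10.2 and 7.53) and below it from about 14 kb on; in Trpv3 and Trpm7 it is above at every region.

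The TMEM63 genes had folds below 1 whose size depended on the scaling. Tmem63a, on chromosome 1 from 180942286 to 180975106 on the plus strand, was the most covered member, with 10 regions that summed to 914 stretched and 1049 control counts (fold 0.921, 0.842 to 1.01). It stood at 0.651 (0.595 to 0.712) with total scaling, 0.835 (0.763 to 0.913) with the large regions set aside and 0.785 (0.718 to 0.859) with the count trend removed. Its strongest region, which was also the strongest of all 59 (180966630 to 180967962), had 290 and 326 counts and a fold of 0.940 (0.800 to 1.10). The promoter region (180941873 to 180943995) had 162 and 177 counts (0.967, 0.777 to 1.204), and 20.03% of promoter regions in the same range of counts as that of Trpm7 had a lower fold. The called region, 1169 bases beyond the gene end (180976275 to 180976705), had 16 stretched and 34 control counts and a fold of 0.497 (0.256 to 0.926). That fold sits at the 2-fold limit, and the call was lost with DESeq2 size factors and with the count trend removed.

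Tmem63b, on chromosome 17 from 45660172 to 45686343 on the minus strand, had 2 regions with 97 stretched and 116 control counts (fold 0.884, 0.668 to 1.17, and 0.625, 0.472 to 0.825, with total scaling). Its start site lies in a region (45684701 to 45686889) that also covers the end of Mrpl14, a mitochondrial ribosomal protein gene. That region counts for Mrpl14, the shorter span, and had 136 stretched and 149 control counts (0.965, 0.759 to 1.23). At both TMEM63 promoters the interval of the TMM-scaled fold held 1.

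Kcnk1, on chromosome 8 from 125993655 to 126030685 on the plus strand, had 4 regions with 102 stretched and 110 control counts (fold 0.980, 0.741 to 1.29). The one next to its start site (125995182 to 125995948) had 44 and 45 counts and a fold of 1.03 (0.666 to 1.60). With 212 counts in all it was the member with the least depth, and its interval reaches 1.29 upward and 0.741 downward.

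Panx1, the ATP release channel, on chromosome 9 from 15005785 to 15045478 on the minus strand, had 10 regions with 462 stretched and 443 control counts (fold 1.10, 0.965 to 1.26, and 0.779 with total scaling). Its promoter region (15044003 to 15045984) had 175 and 179 counts and a fold of 1.03 (0.834 to 1.28). Over its 10 regions the folds ran in both directions, 6 above 1 and 4 below, and every interval held 1. The highest, at 15023130 to 15023508, had 26 stretched and 16 control counts (1.72, 0.887 to 3.43).

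Orai1, the pore of store-operated calcium entry, lies on chromosome 5 from 123015074 to 123030452 on the plus strand and had 4 regions, with 444 stretched and 499 control counts (fold 0.940, 0.826 to 1.07). This near-even sum joins regions that differed. The promoter region (123014537 to 123016292) had 247 stretched and 210 control counts and a fold of 1.24 (1.03 to 1.501). It stood at 0.879 with total scaling and 0.951 with the count trend removed, and 29.2% of promoter regions with 400 or more counts had a lower fold.

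Upstream of Orai1 the folds were lower with distance. The region 964 bases from the gene (123013703 to 123014110) had 101 and 105 counts and a fold of 1.02 (0.766 to 1.35). At 6931 bases (123007244 to 123008143) 74 stretched counts stood against 125 control counts (0.626, 0.463 to 0.841). At 8868 bases (123005691 to 123006206) there were 22 and 59 counts, and this region was called lower (0.394, 0.230 to 0.653). Inside the gene span alone, the fold of Orai1 is that of its promoter region. The called regions of Piezo1 and Orai1, 3 in all, were the 3 of 6 that kept their call under each of the 4 other scalings. The Piezo1 ones depend on the assignment, since neither counts for Piezo1 when regions go to the nearest gene end.

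**Figure D3:**
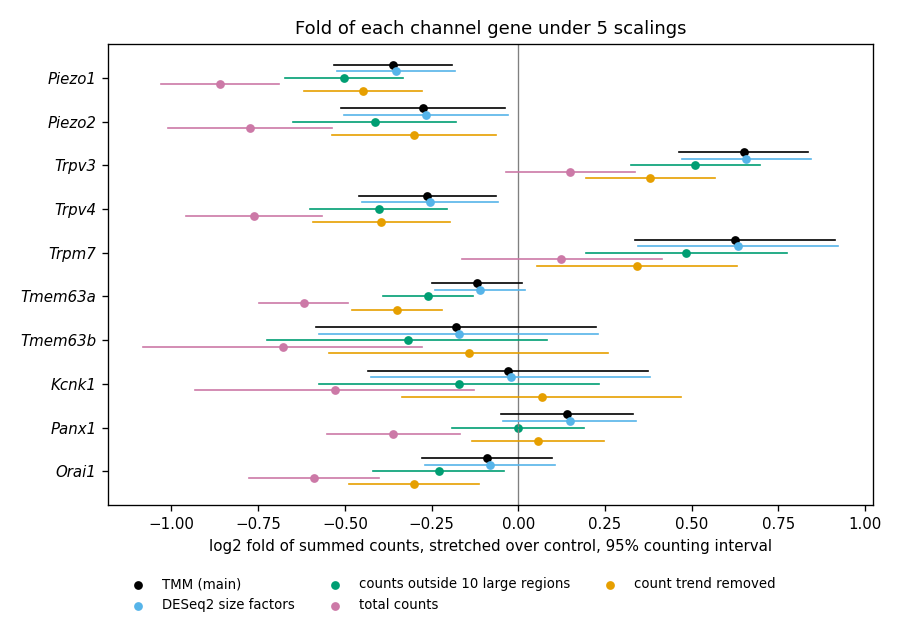
Log2 fold of the summed counts of each gene, stretched over control, with 95% counting intervals, under 5 scalings. Trpv3 and Trpm7 are above 0 in each, but with total counts their intervals hold 0. Piezo1, Piezo2 and Trpv4 are below 0 in each of the 5. Scaling by the fragments kept for peak calling, which would raise all folds above TMM, is not among them.

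The promoter region of a gene was then compared with the other regions assigned to that gene, a ratio that no scaling factor can move. The promoter fold of Piezo1 was 1.92 times (1.38 to 2.69) that of its other 7 regions, which had 395 stretched and 594 control counts together (fold 0.703, 0.617 to 0.799). In Orai1 the ratio was 1.72 (1.32 to 2.25), the other regions having 197 and 289 counts (fold 0.720, 0.598 to 0.866). Those 3 regions all lie upstream, outside the gene span, so in Orai1 the contrast is not with the gene body. Among 7 members with a promoter region, 2 had an interval above 1 and 0 below, beside 34.1% and 5.65% of 7617 genes. The 2 of 7 are near the share of all genes, and a ratio above 1 was the usual state, with a median of 1.26 over all genes.

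The other 5 members held 1 in the interval. The ratio was 1.28 (0.981 to 1.66) in Trpv3, whose other regions had 261 stretched and 200 control counts (fold 1.38, 1.14 to 1.67). It was 1.14 (0.669 to 1.93) in Trpv4, 1.06 (0.833 to 1.35) in Tmem63a, 0.899 (0.682 to 1.19) in Panx1 and 0.629 (0.299 to 1.27) in Trpm7. Over all promoter regions 9.71% were called higher and 2.3% lower, and none of the 7 here was called. Their interval lay above 1 in Trpv3, Trpm7 and Orai1, 3 of 7, beside 44.4% of all promoter regions, and below 1 in none of the 7, beside 8.78%. Piezo2 had no promoter window and is not among the 7. Its region at the upper end of the gene (0.704, 0.538 to 0.918) was therefore not classed as a promoter, and its interval lay below 1. Fold grew with count among all promoter regions, from a median of 0.822 at 20 to 49 counts to 1.49 at 400 or more, and with that trend removed the promoter folds were 1.30 for Trpv3, 1.18 for Trpm7 and 0.951 for Orai1. The Piezo1 promoter, with 180 counts, had a fold of 1.28 with the trend removed, and its other regions had 38 to 277 counts. The part of the count trend in the ratio of promoter to other regions was not tested.

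**Figure D4:**
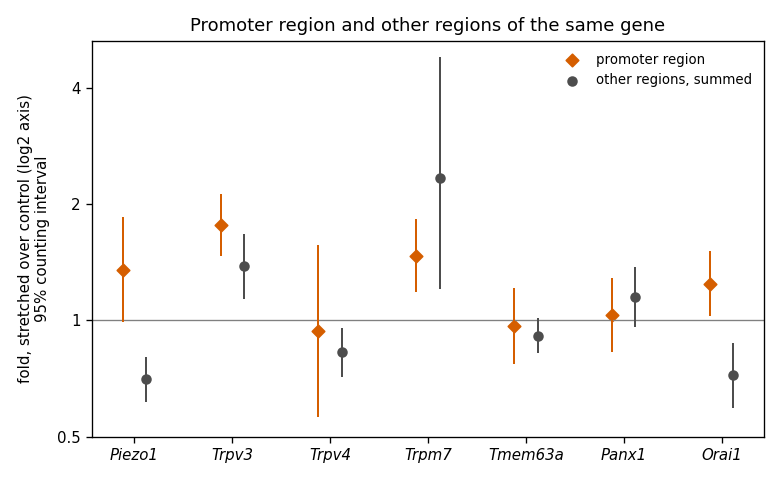
Fold, stretched over control, with 95% counting intervals on a log2 axis, of the promoter region (diamonds) and of the summed other regions (circles) of 7 channel genes. The pair of intervals stands apart in Piezo1 and Orai1 and overlaps in the other 5 genes.

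By position, the 7 regions touching a gene end had a median fold of 1.24, and all 11380 such regions had 1.23 (0.879 and 0.871 with total scaling). The 40 channel regions inside a gene had a median fold of 0.969, against 0.945 for all 44271. The 12 channel regions outside the gene spans had a median of 0.777, and all 39206 outside had 0.993. These 12 belong to Piezo2, Trpv4, Tmem63a, Kcnk1, Panx1 and Orai1.

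The authors' peak calls gave another reading of the same libraries. Of the 59 regions, 45 overlapped a listed peak of the stretched library and 47 one of the control library. Both libraries had a peak at 41 (69.5%, beside 60.2% of all regions), the stretched library alone at 4 (6.78%, beside 14.9%), and the control library alone at 6 (10.2%, beside 9.33%). The 4 peaks of the stretched library alone were at Piezo2 and Panx1, 2 each, and those of the control library alone at Trpv4 (2), Piezo1, Piezo2, Tmem63b and Panx1.

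The authors' fold enrichment of a summit over its local background was higher in the stretched library at most sites, with a median ratio of 1.21 over all 57064 regions with both peaks and 1.196 over the 41 here. At the Trpv3 promoter it was 10.7 in the stretched and 6.85 in the control library, a ratio of 1.57. At the far region of Trpm7 it was 6.87 and 2.72, a ratio of 2.53, with 99.2% of regions lower, and at its promoter 15.2 and 10.8. The lowest ratio of a Piezo1 region was 0.777, at 122502953, where the enrichment was 3.57 in the stretched and 4.60 in the control library. At the Piezo1 promoter it was 4.68 and 3.19, a ratio of 1.47. The called Orai1 region had 4.00 and 4.68, and the Orai1 promoter 6.97 and 4.40. Elsewhere the readouts often parted. Of the 41 regions, 24 had count fold and enrichment ratio on the same side of their medians over all regions with both peaks, and 17 did not. The share of 58.5% stood beside 66.2% of all such regions. The region 6931 bases upstream of Orai1, for example, had a count fold of 0.626 and an enrichment of 9.52 in the stretched and 6.25 in the control library. A Tmem63a region at 180957738 had a count fold of 0.776 and an enrichment of 8.67 in the stretched and 5.78 in the control library.

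The surroundings of each gene were read from regions of other genes within 200 kb. Around Piezo1, 33 such regions had 0 calls higher and 9 lower, a median fold of 0.693 and a summed fold of 0.840 (0.796 to 0.887). The called ones belong to Zfpm1, Trhr2, Galns and Cbfa2t3, with folds of 0.230 to 0.474. The fold of Piezo1 was 0.927 times (0.814 to 1.06) that of its surroundings. Around Trpv4, 36 regions had 0 higher and 9 lower, and the gene's ratio to them was 0.968 (0.833 to 1.12). Lower values at Piezo1 and Trpv4 were thus shared by the regions around them.

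Trpv3, Trpm7 and Piezo2 differed from their surroundings. The ratio was 1.31 (1.13 to 1.52) for Trpv3, 1.34 (1.08 to 1.66) for Trpm7 and 0.763 (0.633 to 0.917) for Piezo2. Over 14233 genes this ratio had a median of 0.995 and ran from 0.680 at the 10th to 1.45 at the 90th percentile, so all 3 lie inside that range. Within 50 kb the ratio was 1.80 (1.46 to 2.23) for Trpv3, 2.11 (1.58 to 2.81) for Trpm7, 0.563 (0.433 to 0.732) for Piezo2 and 1.17 (1.03 to 1.34) for Tmem63a. These surroundings held only 8, 5, 4 and 10 regions. Within 500 kb it was 1.51 (1.31 to 1.74) for Trpv3, 1.37 (1.11 to 1.69) for Trpm7, 0.740 (0.622 to 0.879) for Piezo2 and 1.18 (1.03 to 1.35) for Orai1. In each window the interval of every other member held 1. The range over all genes is for 200 kb and does not apply to these windows. Next to Trpv3 lies Trpv1, the capsaicin receptor gene, with 2 of 4 regions called lower. One of them (73260399 to 73260890) had 15 stretched and 32 control counts (0.495, 0.249 to 0.942), a few kb from the Trpv3 promoter with its fold of 1.76. Next to Trpm7, 2 of the 5 regions within 50 kb, both of Usp50, were called lower. At 1 of them 24 stretched counts stood against 67 control counts (0.379, 0.227 to 0.611). For the other 5 genes the interval of the ratio within 200 kb held 1.

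**Figure D5:**
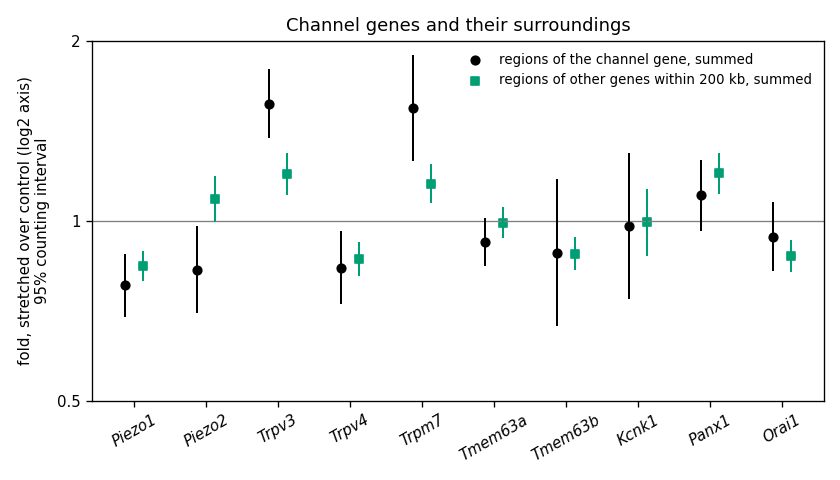
Fold, stretched over control, with 95% counting intervals on a log2 axis, of the summed regions of each channel gene (black circles) and of the summed regions of other genes within 200 kb (green squares). Piezo1 and Trpv4 lie at the level of their surroundings, and Trpv3 and Trpm7 lie above theirs.

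Other channel and calcium genes, 94 in 5 lists, had 729 regions, of which 42 (5.76%) were called higher and 55 (7.54%) lower, beside 7.22% and 8.71% of all regions. Among the other TRP channels 8 of 153 regions were higher (5.23%) and 12 lower (7.84%). Trpm3, a heat channel of sensory neurons, led them with 1 higher and 3 lower (fold 1.01, 0.942 to 1.07). Trpm1 had 2 lower of 18 (1.03, 0.930 to 1.14) and Pkd2l1 1 higher and 1 lower of 7 (0.990, 0.883 to 1.11). Tied with these 2 genes in called regions, but with fewer counts, were Trpc4 (0.887, 0.771 to 1.02), Trpm6 (1.25, 1.08 to 1.45) and Trpv1 (0.805, 0.652 to 0.991). Trpa1, an irritant receptor, tied too and had the fewest counts of the tied genes. Named after its values were seen, it had 2 higher of 2 regions (2.54, 1.48 to 4.51) with 48 stretched and 20 control counts. Of 190 regions of other mechanically gated or swelling-activated channels 13 were higher (6.84%) and 16 lower (8.42%). There Tmc1, a part of the hair cell transduction channel, had 4 higher and 1 lower of 14 (1.64, 1.44 to 1.86), Ano1, a calcium-activated chloride channel, 1 higher and 5 lower of 20 (0.845, 0.779 to 0.917), and Asic2 3 higher and 2 lower of 26 (0.976, 0.879 to 1.08).

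Of 66 regions of other tandem-pore potassium channels 3 were higher (4.55%) and 7 lower (10.6%). Kcnk2, which encodes the stretch-sensitive TREK1, had 1 each way of 21 (1.30, 1.198 to 1.41), Kcnk6 1 each way of 3 (0.715, 0.514 to 0.990), and Kcnk13 1 lower of 4 (0.716, 0.632 to 0.810). The pannexin partners and ATP receptors had 2 higher (3.57%) and 7 lower (12.5%) of 56 regions. P2rx7, a receptor for high levels of ATP, had 3 lower of 10 (0.539, 0.457 to 0.636), with 221 stretched against 433 control counts. P2ry2, a G protein-coupled receptor for ATP and UTP, had 1 higher and 2 lower of 11 (0.864, 0.781 to 0.955), and P2rx5 1 lower of 3 (0.665, 0.534 to 0.825).

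The list of store-operated entry and calcineurin-NFAT genes, the partners of Orai1, had 16 of 264 regions called higher (6.06%) and 13 lower (4.92%). Beside 7.22% and 8.71% of all regions, both shares were smaller. It was the only one of the 5 with more higher than lower calls and with a median log2 fold above 0 (0.06). With total scaling, 0.50 lower, that median is below 0. Ppp3r1, the regulatory subunit of calcineurin, had 3 higher and 1 lower of 7 (1.87, 1.64 to 2.15), with 596 stretched and 336 control counts. Ppp3ca, a catalytic subunit, had 3 higher and 1 lower of 28 (1.34, 1.25 to 1.44). Itpr1, a calcium release channel of the endoplasmic reticulum, had 4 higher and 1 lower of 37 (1.17, 1.10 to 1.25). With total scaling the 5 lists together had 7 higher (0.960%) and 173 lower (23.7%), beside 1.68% and 23.2% of all regions.

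Over the 2 libraries, the genes of these lists whose fold was nearest to a member's were Kcnk9 (1.55, 1.02 to 2.36) and Entpd2 (1.52, 1.16 to 1.99) for both Trpv3 and Trpm7. For Piezo1 they were Trpm2 (0.775, 0.513 to 1.16) and P2rx4 (0.774, 0.589 to 1.02), and for Trpv4 and Piezo2 Trpv6 (0.833, 0.671 to 1.03) and Kcnk7 (0.832, 0.712 to 0.971). For Orai1 they were Panx2 and Nfatc3, for Panx1 Scnn1b and Pacc1, for Tmem63a Lrrc8d and Nfat5, for Tmem63b Tmc4 and Trpc4, and for Kcnk1 Trpm4 and Asic2, each within 0.0236 on the log2 scale. Likeness over 2 libraries is 1 number and has no other support.

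Markers of the sorted cells were open in both libraries. All 10 basal genes had regions, 144 in all with 13 higher and 7 lower (9.03% and 4.86%, beside 7.22% and 8.71% of all regions). Their counts summed to 9664 in the stretched and 9462 in the control library. By gene, the interval lay above 1 for 5 of them. It lay below 1 for Krt15 (0.690, 0.575 to 0.826) and Col17a1 (0.891, 0.809 to 0.981). Markers of other skin cells had smaller summed counts, but over only 36 melanocyte, 21 Langerhans and T cell, and 35 fibroblast and endothelial regions. Lists of such different size cannot be compared by their sums. The melanocyte list had 1787 stretched and 2139 control counts at 7 of 8 genes, with none at Tyr. Langerhans and T cell markers had 568 and 739 counts at 8 of 8 genes, with Cd207, the langerin gene, at 49 and 74 but Ptprc at 129 and 105. The fibroblast and endothelial list had 1425 and 1816 at 8 of 8. In that order the gene interval lay below 1 at 2, 3 and 3 genes. It lay above 1 at 0, 0 and 1, the last being Cdh5 (1.43, 1.04 to 1.98). Each of these 3 lists had fewer scaled counts in the stretched library by its median fold (0.8996, 0.767 and 0.837), and their part in the channel genes' values was not tested.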

How the data were processed

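ATAC-seq libraries of 1 stretched and 1 untreated CD1 mouse were compared, grouped by the treatment label. Per the submitters' processing notes, the build was GRCm38 and the tools were MACS2 2.1.0.20151222 and Bowtie2 2.2.6, with HTSeq, Picard and SAMtools. The deposited counts are raw counts over merged regions shared by both libraries; how they were counted and whether duplicates had been removed are details not given in the sources used here. Peaks were called by the authors on each library alone with MACS2 (q cutoff 0.05, no control file), per the file headers, from 23876613 stretched and 31944854 control fragments. The deposited pileup is a signal in whole fragments, and the deposited fold enrichment, a ratio, and the deposited -log10 p and q values are relative to the same library's local background.

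Folds used edgeR 4.0.16 TMM factors (R 4.3.3) and exact Clopper-Pearson intervals, or exact conditional odds ratio intervals for the ratio of promoter to other regions. Intervals cover counting error only, since each group holds 1 library. The counts carry no molecular identifiers, so any duplicates left in them would make these intervals too narrow. Simulated counts were used to test the call rule. Gene spans and promoter windows came from RefSeq GRCm38.p6; no exon or intron annotation was used, and 9 of 10 genes had a window. Tables were computed with pandas 2.3.3, numpy 2.4.6, statsmodels 0.14.6 and scipy 1.17.1 in Python 3.11.15, and plots drawn with matplotlib 3.10.9. DESeq2 1.42.0 size factors, scalings by totals, lowess trend removal (fraction 0.3), and other limits and assignments were alternatives.

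The genes named are the 10 members, the 3 genes of each other list with most called regions (ties by summed count), the 2 nearest in fold, and neighbours with called regions. Also named are the other TRP channels tied in called regions, and markers of cell types. The members and lists were chosen with earlier results of these data known. The ratio of promoter to other regions, the ratio to the surroundings, the sides of count and enrichment, and the shares by count were added after the data were seen.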

Additional observations from a re-analysis of the deposited data

How the results depend on the processing

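No paired analysis was possible because each group holds 1 library, and for the same reason no replicate could be left out. The scaling moved the folds most. With total counts they were 0.551 for Piezo1, 0.585 for Piezo2, 1.11 for Trpv3, 0.590 for Trpv4, 1.09 for Trpm7, 0.651 for Tmem63a, 0.625 for Tmem63b, 0.693 for Kcnk1, 0.779 for Panx1 and 0.665 for Orai1. Counts outside the large regions put Tmem63a at 0.835. With the count trend removed Trpv3 was at 1.30, Tmem63a at 0.785 and Orai1 at 0.812. Assignment to the nearest gene end left Piezo1 with 5 regions, without its 2 called ones, at 0.889 (0.779 to 1.01). Regions inside the span put Orai1 at 1.24. Without a count minimum Piezo2 stood at 0.860 (0.733 to 1.01), an interval that holds 1. No gene whose interval excluded 1 changed the sign of its log2 fold.

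Of the channel regions, total scaling called 0 higher and 12 lower (0% and 20.3%, beside 1.68% and 23.2% of all regions), and trend removal 3 lower (5.08%, beside 7.43%). A minimum of 50 counts left 0 higher (0%, beside 6.33% of all regions) and gene-end assignment 2 lower (3.85%, beside 8.71%). The gene span alone left 3 lower (6.38%, beside 8.42%) and a 99% interval 3 lower (5.08%, beside 6.37%). A fold limit of 1.5 gave 3 higher (5.08%, beside 14.6%). A limit of 3 gave 0 higher and 1 lower (0% and 1.69%, beside 1.92% and 3.05%). For the other channel and calcium lists the counts of higher and lower were 7 and 173 with total scaling (0.960% and 23.7%, beside 1.68% and 23.2%). They were 19 and 26 at 50 counts (4.10% and 5.62%, beside 6.33% and 6.05%). At regions with both peaks they were 6 and 22 (1.36% and 4.99%, beside 4.95% and 5.33%). A limit of 1.5 gave 99 and 94 (13.6% and 12.9%, beside 14.6% and 13.7%), and a limit of 3 gave 7 and 18 (0.960% and 2.47%, beside 1.92% and 3.05%). Scaling outside the large regions gave 84 lower there (11.5%, beside 11.8%) and the 99% interval 27 higher (3.70%, beside 5.54%). Total scaling put the gene-end median of the channel regions at 0.879. With peaks limited to a -log10 q of at least 5, 36 channel regions overlapped a stretched peak and 34 a control peak, and with at least 50% of the peak inside the region 45 and 47 did. Within 50 kb the median fold of the surrounding regions was 0.780 for Trpm7 and 1.30 for Piezo2, and within 200 kb 1.10 and 1.03. Depth limits the weak regions: with fewer than 50 counts, the called regions of Piezo2 and Trpm7 were the only channel regions whose interval excluded 1, so smaller differences were not detectable there.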
